A study of Mus musculus with 6 samples.

Results

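The lysosomal genes described here are 37 named genes for hydrolases, membrane proteins and subunits of the proton pump, listed by symbol, with earlier results of these data known, out of 10698 genes that the array's annotation names. Of these, 36 had a probe and 35 had a ratio on all 6 arrays. They were measured in RAW 264.7 cells, a virus-transformed mouse cell line that resembles macrophages (written 264.4 in part of the sources). Treated cells were given lipopolysaccharide (LPS, 100 ng/ml), a component of the bacterial outer membrane, together with LPS-binding protein (100 pM), which hands LPS to its receptor complex. Untreated cells received neither agent, and both were cultured for 16 hours. Each of 6 dual-colour arrays compared total RNA from the 2 cultures directly. On 3 arrays (sets 1 to 3) the treated RNA carried the dye Cy5 and the untreated RNA Cy3, and on the other 3 (again sets 1 to 3) the dyes were swapped.

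Lysosomes are acidic compartments in which proteins, glycans and lipids that a cell has engulfed or recycled are broken down. A proton pump, the V-ATPase, acidifies them, and most of their hydrolases work best at the resulting low pH. In macrophages they are the end point of phagocytosis, and their proteases also cut antigens for presentation. The transcription factor Tfeb binds a DNA element around the letters CACGTG found near many lysosomal genes.

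All values are log2 ratios of treated over untreated. Probes of a gene were averaged, then the 2 dye orientations of a set, and errors are the SD over the 3 sets (n = 3). A gene rose or fell where its adjusted p in limma was under 0.05. Whether the sets came from separate cultures is not given, so the spread over sets may be technical. Each p-value rests on that spread after limma drew it toward the spread shared by all genes tested. The deposited ratios carry no stated direction; Cy5 over Cy3 was used as the likely one, since the labels give the Cy5 RNA as the test sample. Ratios carry no level of expression, so members cannot be ranked by abundance, and lower RNA per cell cannot be told apart from fewer cells that express a gene.

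Lysosomal genes rose more often than they fell after LPS with LPS-binding protein. Of the 35 measured members, 17 rose and 3 fell, which is 48.6% up and 8.57% down, where 16.8% of all 9607 genes tested rose and 14.6% fell. These directions rest on the likely reading of the ratios: with Cy3 over Cy5, every sign turns, and the members would count 3 up and 17 down, with Npc2 the lowest and Ctsb the highest. The median over the members was 0.30 (1.23-fold), and it was -0.0077 over all genes tested. By set the members' median was 0.22, 0.34 and 0.19, against -0.0017, -0.013 and 0.0026 for all genes. Few rises reached 2-fold, among members as among all genes. That held for 2 of the 35 members (Npc2 and Ctsc) and for 353 of the 9607 genes (3.67%). Npc2, a carrier of cholesterol in the lysosome, rose most (2.66-fold), and Ctsb, a cysteine protease, fell most (1.35-fold lower). Exact zeros in the deposited ratios were taken as missing. With them kept as ratios, Npc2 was at 0.92, under 2-fold and below Ctsc (1.04).

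**Figure D1:**
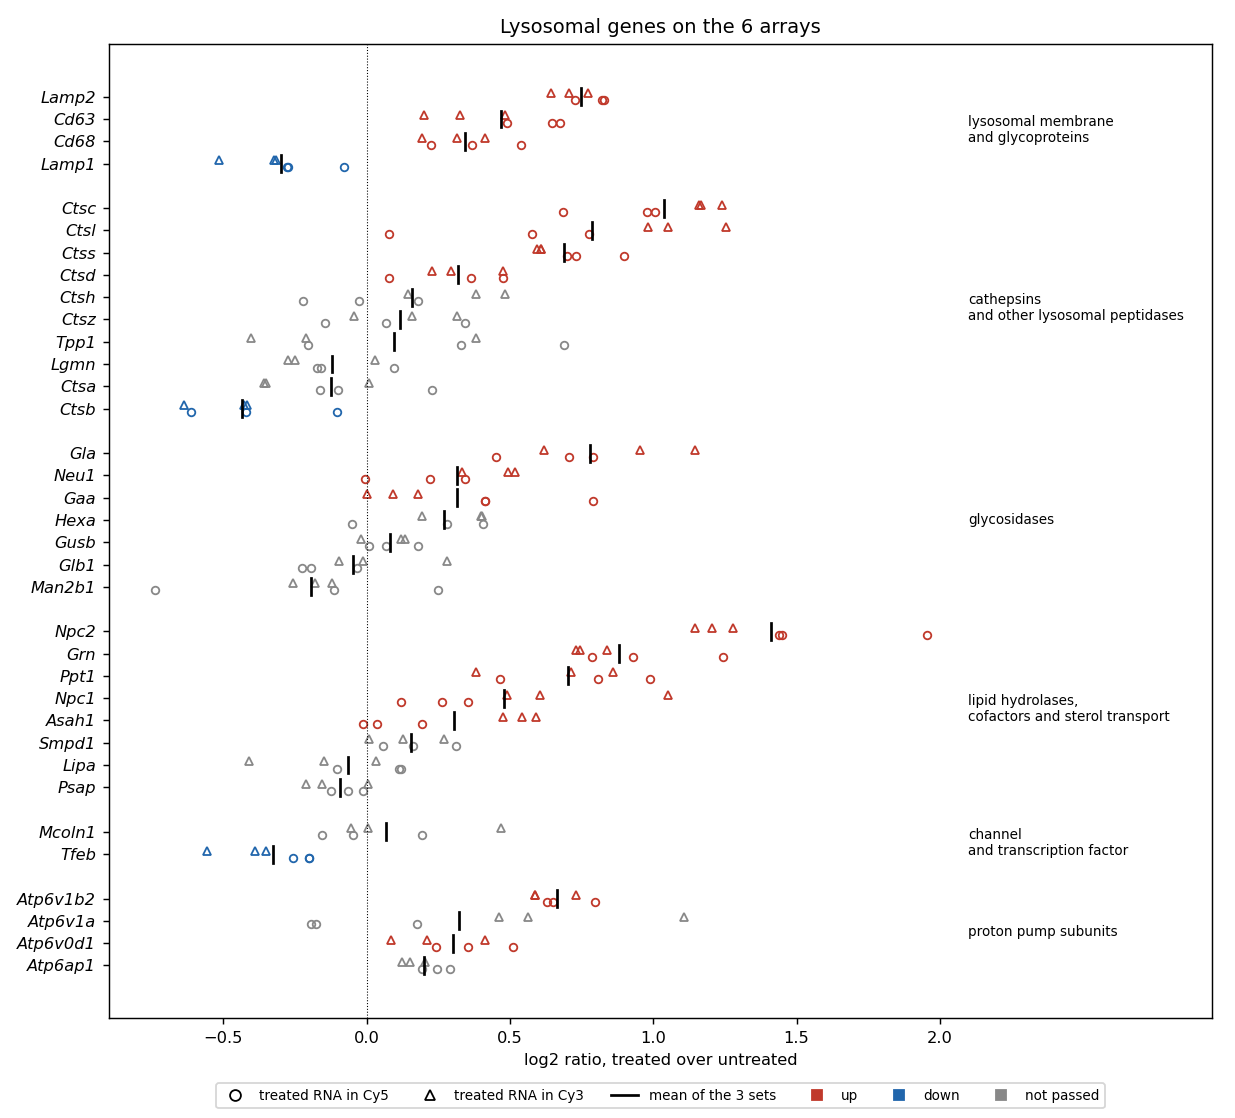
Log2 ratio of treated over untreated cells (horizontal axis) for the 35 measured lysosomal genes, grouped by role and ordered by value. Circles are the 3 arrays with treated RNA in Cy5, triangles the 3 with treated RNA in Cy3, and black bars the mean of the 3 sets; red genes rose, blue genes fell and grey genes did not pass. Npc2 lies between 1.14 and 1.96 on every array, and the Lamp1, Ctsb and Tfeb points are all below 0.

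Among the members that fell was the transcription factor Tfeb, read by 1 probe for its RNA only. Tfeb stood at -0.32, -0.28 and -0.38 in the 3 sets, and its 6 arrays lay between -0.56 and -0.20. Every array was below 0, and the mean was 1.25-fold lower (-0.33 ± 0.052, adjusted p = 0.0120). Tfeb no longer passed without set 1 (adjusted p = 0.0630) or on the Cy5 arrays alone (-0.22, adjusted p = 0.152). Mcoln1, a calcium channel of the lysosomal membrane, was at -0.052, -0.075 and 0.33 (mean 0.067 ± 0.23, adjusted p = 0.684), with set 3 standing above the other two.

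Promoter windows (250 bases before to 50 after a start site) were taken from RefSeq's table of assembly GRCm38.p6, which held 31 of the 37 members. The letters CACGTG stood in a window of 12 of these 31 members (38.7%), against 8.09% of all 27025 genes in the table. Among the 7641 tested genes with a window, a closer background, the share was 10.7%. The longer palindrome TCACGTGA, which contains CACGTG, stood in 7 of 31 (22.6%), against 1.12% of all genes and 1.77% of the tested genes. Both strands were searched, and a match describes the letters only. The windows of Gla (chrX:134601006-134601255, minus strand) and Lamp1 (chr8:13158911-13159160, plus strand) are shown because they held several copies, 2 of TCACGTGA and 4 of CACGTG, while Gla rose and Lamp1 fell. Several copies also stood in windows of other members. Ctsa, which did not pass, held TCACGTGA beginning 13 bases before and 4 bases after the start site. Ctsd, which rose, and Mcoln1, which did not pass, held CACGTG more than once. Each window shown ends at the base before the start site, and capitals mark the motif.
Gla: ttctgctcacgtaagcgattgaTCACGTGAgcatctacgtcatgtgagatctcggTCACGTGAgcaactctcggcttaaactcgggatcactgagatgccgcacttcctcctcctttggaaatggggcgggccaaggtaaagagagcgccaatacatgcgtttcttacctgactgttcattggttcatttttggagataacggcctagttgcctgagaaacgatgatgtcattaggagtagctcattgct
Lamp1: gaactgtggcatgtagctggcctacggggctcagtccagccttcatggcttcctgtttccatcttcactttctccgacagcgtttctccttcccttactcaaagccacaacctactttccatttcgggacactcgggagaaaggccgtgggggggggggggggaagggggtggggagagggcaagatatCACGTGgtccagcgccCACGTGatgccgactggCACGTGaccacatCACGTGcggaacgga

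Stretches of 30 bases around TCACGTGA are given for members of different roles, to let the flanks be compared. They are Mcoln1 (chr8:3500462-3500491, plus strand), Ctsd (chr7:142387908-142387937, minus), Atp6v0d1 (chr8:105566050-105566079, minus) and Atp6v1a (chr16:44139373-44139402, minus), with the motif beginning 46, 99, 4 and 132 bases before the start site.
Mcoln1: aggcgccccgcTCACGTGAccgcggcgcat
Ctsd: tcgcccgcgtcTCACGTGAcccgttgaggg
Atp6v0d1: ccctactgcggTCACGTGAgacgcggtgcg
Atp6v1a: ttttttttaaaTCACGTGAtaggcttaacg

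Holding the letters did not go with one direction among the members. Of the 11 measured members with CACGTG, 5 rose, 1 fell and 5 did not pass. Of the 19 measured members whose windows lacked it, 9 rose and 1 fell. Across all tested genes with CACGTG in a window (819 of 7641), 17.0% rose and 17.9% fell. Of the other motifs searched, the full CLEAR consensus, which contains TCACGTGA, was in 0 of the 31 members (0.370% of all genes, 0.524% of tested genes). GAGGAA, the core bound by the macrophage factor PU.1, was in 13 (41.9%, against 31.3% and 30.7%). The interferon-response core, GAAA repeated after a gap, stood in 2 of 31 (6.45%, against 3.99% and 4.03%), Ctss and Lamp1. The Ctss stretch (chr3:95526755-95526784, plus strand) is shown as the one of the pair that rose, with the element in capitals.
Ctss: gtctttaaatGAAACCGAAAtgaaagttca

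Among the membrane glycoproteins, 3 of 4 rose and 1 fell, with a median of 0.41. That is 75% up and 25% down, where 16.8% of all genes tested rose and 14.6% fell. Lamp2, an abundant protein of the lysosomal membrane that is needed for autophagy, was at 0.69, 0.76 and 0.80 in the 3 sets, between 0.64 and 0.83 on single arrays. It rose 1.68-fold (0.75 ± 0.058, adjusted p = 0.000370). Its close relative Lamp1 was at -0.30 in each set and between -0.52 and -0.079 on single arrays, a fall of 1.23-fold (-0.30 ± 0.0019, adjusted p = 0.0153). The pair thus differed by 1.05 ± 0.056, and Lamp2 exceeded Lamp1 on 6 of 6 arrays without overlap. The very small SD of Lamp1 is that of the set means, while its single arrays spread far more. Its p-value in limma uses a moderated standard error of 0.068.

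Cd63, a tetraspanin of late endosomes and lysosomes, stood at 0.56, 0.44 and 0.41 and rose 1.38-fold (0.47 ± 0.084, adjusted p = 0.00322). Cd68, a glycoprotein typical of macrophage lysosomes, stood at 0.48, 0.34 and 0.21 and rose 1.27-fold (0.34 ± 0.13, adjusted p = 0.0170). All 6 arrays were above 0 for both. The calls of Cd68 and Lamp1 were lost without set 1 (adjusted p = 0.108 and 0.0782) and without set 2 (0.0643 and 0.0583), which left 2 of the 4 up and 0 down. Lamp1 also did not pass on the Cy5 arrays alone (-0.21, adjusted p = 0.189), nor Cd68 with exact zeros kept as ratios (adjusted p = 0.0555).

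The peptidases split. Of 10 members, 4 rose (40%), 1 fell (10%) and 5 did not pass, with a median of 0.14. All 4 that rose and the 1 that fell are cathepsins. Of all genes tested, 16.8% rose and 14.6% fell. Ctsc, a dipeptidyl peptidase that activates granule proteases, was at 1.07, 0.92 and 1.12, and rose 2.05-fold (1.04 ± 0.10, adjusted p = 0.000117). Its 2 probes were at 1.09 and 0.99. Ctsl, a cysteine endopeptidase, was at 0.88, 0.67 and 0.81 and rose 1.73-fold (0.79 ± 0.11, adjusted p = 0.000427). Single arrays of Ctsl ranged from 0.077 to 1.25, with the 3 Cy3 arrays (0.98 to 1.25) all above the 3 Cy5 arrays (0.077 to 0.78), and the Cy5 arrays alone gave 0.48 (adjusted p = 0.0644). A second Ctsl probe read exact 0 on every array; with exact zeros kept as ratios, Ctsl was at 0.39.

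Ctss, the cysteine protease that trims the invariant chain of MHC class II molecules, was the most even of the rising cathepsins. It stood at 0.67, 0.75 and 0.65, with its arrays between 0.59 and 0.90 and its 2 probes at 0.70 and 0.68, and rose 1.61-fold (0.69 ± 0.050, adjusted p = 0.000505). Ctsb, an abundant cysteine protease, went the other way. Its sets were at -0.43, -0.26 and -0.62, every array was below 0 (-0.64 to -0.10), and it fell 1.35-fold (-0.44 ± 0.18, adjusted p = 0.00997). Ctsc exceeded Ctsb by 1.48 ± 0.28 and Ctsl exceeded it by 1.22 ± 0.27, each on 6 of 6 arrays. The call of Ctsb was lost on the Cy5 arrays alone (adjusted p = 0.0759).

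Ctsd, an aspartic protease, rose 1.25-fold by the mean of its probes (0.32 ± 0.12, adjusted p = 0.0198), but the probes disagreed. One was at 0.79, 0.91 and 0.57 (mean 0.76, adjusted p = 0.000883), and the other at -0.089, -0.074 and -0.20 (mean -0.12, adjusted p = 0.294). Ctsh, an aminopeptidase, did not pass as a gene (0.16 ± 0.19, adjusted p = 0.253); its probes were at 0.41 (adjusted p = 0.0121) and -0.092 (0.606). Ctsd did not pass without set 1 (adjusted p = 0.0998), without set 2 (0.0974) or on the Cy5 arrays alone (0.108). Nor did Ctsd pass with exact zeros kept as ratios (0.0541).

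The other peptidases gave no call. Ctsa, a carboxypeptidase that shields Neu1 and Glb1 in one complex, was at -0.23, 0.12 and -0.26, and Lgmn, which cuts after asparagine, at -0.22, 0.063 and -0.21. For both, set 2 stood above 0 and the other sets below it. Ctsz, a carboxypeptidase, was close together at 0.11, 0.15 and 0.084 (95% confidence interval of the mean -0.048 to 0.28). Tpp1, a tripeptidyl peptidase, had the widest spread of all members, at -0.30, 0.058 and 0.53 (SD 0.42). One of its probes ranged most, at -0.57 and -0.36 in sets 1 and 2 and 0.88 in set 3.

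Of 7 glycosidases, 3 rose and 0 fell, with a median of 0.27. That is 42.9% up and 0% down, where 16.8% of all genes tested rose and 14.6% fell. Gla, the alpha-galactosidase that clears globotriaosylceramide, was at 0.87, 0.93 and 0.54, with all arrays between 0.45 and 1.14, and rose 1.71-fold (0.78 ± 0.21, adjusted p = 0.00115). Neu1, a sialidase, stood at 0.36, 0.43 and 0.16 and rose 1.24-fold (0.32 ± 0.14, adjusted p = 0.0239). Gaa, which degrades glycogen, stood at 0.25, 0.48 and 0.21 and rose 1.24-fold (0.31 ± 0.15, adjusted p = 0.0264). Gla was clear of 0 on every array, whereas Neu1 and Gaa each reached 0 on 1 array (-0.0070 and 6.1e-05).

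Hexa, the alpha subunit of hexosaminidase, was at 0.34, 0.40 and 0.069 (0.27 ± 0.18, adjusted p = 0.0564). Gusb, a glucuronidase, was at 0.081 ± 0.064, Glb1, a galactosidase, at -0.047 ± 0.15, and Man2b1, a mannosidase, at -0.19 ± 0.26. Neu1 thus passed, while its complex partners Ctsa and Glb1 did not; these differences between genes were not tested. Without set 1, Neu1 and Gaa lost their calls (adjusted p = 0.116 and 0.0775), as they did without set 2 (0.115 and 0.124), leaving Gla alone; Gaa was at 0.091 on the Cy3 arrays alone and Neu1 at 0.18 on the Cy5 arrays alone. Without set 3, Hexa passed (0.37, adjusted p = 0.00897). With exact zeros kept as ratios, 1 of the 7 glycosidases rose.

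Members that handle lipids, with their protein cofactors, held the member that rose most: 5 of 8 rose and 0 fell. That is 62.5% up and 0% down, where 16.8% of all genes tested rose and 14.6% fell. The median of the 8 members was 0.39 (0.21 on the Cy5 arrays and 0.59 on the Cy3 arrays). Npc2 was at 1.29, 1.62 and 1.33, between 1.14 and 1.96 on single arrays (1.41 ± 0.18, adjusted p = 6.3e-05). A further Npc2 probe had a ratio on 2 arrays only, at 1.47 and 1.12. Its other 4 values were exact 0, and with exact zeros kept as ratios Npc2 was at 0.92. Npc1, the membrane protein to which Npc2 passes cholesterol, rose 1.40-fold by the mean of its probes (0.48 ± 0.11, adjusted p = 0.00341). Those probes differed by 1.01, the widest gap among members. One stood at 0.93, 1.20 and 0.83, and the other at 0.029, -0.026 and -0.080, where the latter ran from -0.84 to 0.79 on single arrays. On the Cy5 arrays alone Npc1 did not pass (0.25, adjusted p = 0.137).

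Grn, the precursor of the lysosomal granulins, was at 0.84, 1.04 and 0.76 and rose 1.84-fold (0.88 ± 0.15, adjusted p = 0.000367); its probes were at 0.95 and 0.81. Ppt1, which removes palmitate from proteins, was at 0.42, 0.76 and 0.92 and rose 1.63-fold (0.70 ± 0.26, adjusted p = 0.00278). For both, all arrays were above 0. Asah1, the acid ceramidase, rose 1.24-fold (0.30 ± 0.076, adjusted p = 0.0178), with the 3 Cy3 arrays at 0.48 to 0.59 and the 3 Cy5 arrays at -0.011 to 0.19. Its call was lost without set 1, 2 or 3 (adjusted p = 0.0642, 0.0529 and 0.0604) and on the Cy5 arrays alone (0.073, adjusted p = 0.645).

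The other lipid-handling members did not pass. Smpd1, the acid sphingomyelinase, was at 0.16 ± 0.13, Lipa, the acid lipase, at -0.066 ± 0.17, and Psap, the precursor of the saposins, at -0.094 ± 0.041. The interval for Psap ran from -0.26 to 0.070 and that for Smpd1 from -0.032 to 0.34, so a small change in either is not shown to be absent.

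Of the 6 proton pump members, 4 were measured, with a median of 0.31. Of these 4, 2 rose (50%), 0 fell, and all 4 means were above 0. Among all genes tested, 16.8% rose and 14.6% fell. Atp6v1b2, a catalytic-sector subunit, was at 0.61, 0.76 and 0.62, with arrays between 0.59 and 0.80 and probes at 0.69 and 0.64, and rose 1.58-fold (0.66 ± 0.088, adjusted p = 0.000744). Atp6v0d1, in the membrane sector, was at 0.16, 0.46 and 0.28 and rose 1.23-fold (0.30 ± 0.15, adjusted p = 0.0312). The narrow range of Atp6v1b2 did not overlap that of Atp6v0d1, whose arrays ended at 0.51. Without set 2 the call of Atp6v0d1 was lost (adjusted p = 0.145), leaving 1 pump member up. Atp6v0d1 kept its call in 10 of the 13 alternative settings, and its highest adjusted p in limma over them was 0.717. With exact zeros kept as ratios it was at 0.22.

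Atp6v1a, the subunit that hydrolyses ATP, divided by dye. Its Cy5 arrays were at -0.18, 0.18 and -0.19 and its Cy3 arrays at 0.56, 1.11 and 0.46, with no overlap (mean 0.32 ± 0.28, adjusted p = 0.0673). The split came from 1 of its 2 probes, which read -0.55, -0.47 and -0.69 on the Cy5 arrays and 1.04, 1.72 and 0.74 on the Cy3 arrays. The other probe was above 0 on all 6 arrays (0.080 to 0.82, mean 0.35, adjusted p = 0.0542). Without set 3 Atp6v1a passed (0.42, adjusted p = 0.00967). Atp6ap1, an accessory subunit, was even at 0.22, 0.21 and 0.17 (0.20 ± 0.027, adjusted p = 0.0654) and above 0 on all 6 arrays. Atp6v0e lacked a ratio on 1 array and was at 0.41 and -0.013 in the 2 complete sets (adjusted p = 0.327 among 10222 genes). No probe was annotated to Atp6v1h.

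**Figure D2:**
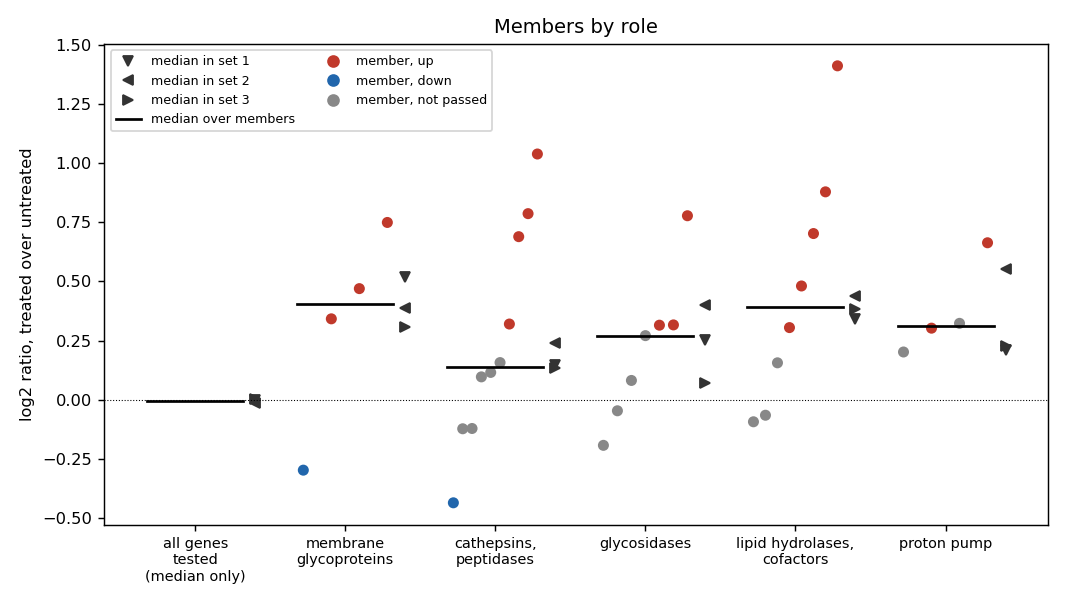
Log2 ratio of treated over untreated cells (vertical axis) for members by role; dots are genes (red rose, blue fell, grey did not pass), the line is the median over members and triangles are the medians of sets 1, 2 and 3. The first column gives medians over all 9607 genes tested, near 0. Tfeb and Mcoln1 are not drawn.

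Set side by side, the medians of the 3 classes overlapped across sets. Cathepsins and other peptidases had set medians of 0.14, 0.24 and 0.14, glycosidases 0.25, 0.40 and 0.072, and pump subunits 0.21, 0.55 and 0.23. Their ranges of gene values overlapped too, from -0.44 to 1.04 for peptidases, -0.19 to 0.78 for glycosidases and 0.20 to 0.66 for the pump. Peptidases were thus the widest class, and also the one with the most measured members (10, against 7 and 4). They alone held a member that fell, Ctsb, which is 10% where 14.6% of all genes fell. In each class set 2 had the highest median.

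Single members with 2 probes gave a check on these values. Of 17 such members, 13 had probes within 0.2 of each other, and the median gap was 0.0625, against 0.12 over the 1846 genes with several probes. Beyond Npc1, Ctsd and Ctsh, Tpp1 exceeded 0.2. Gaps over 0.8, seen in Npc1 (1.01) and Ctsd (0.88), occurred in 5.96% of all genes with several probes.

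**Figure D3:**
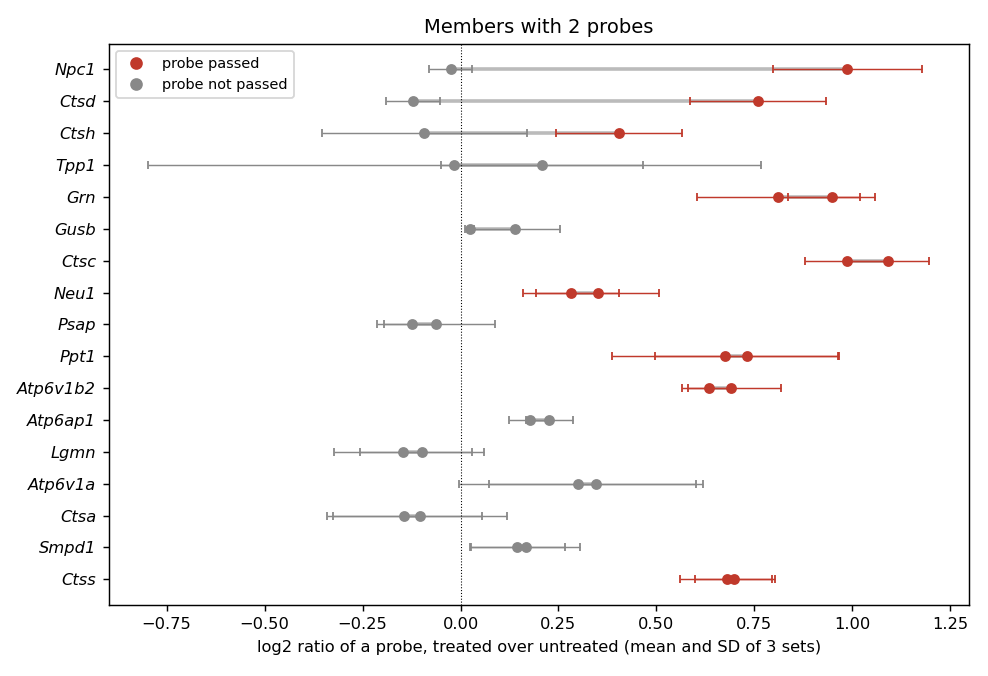
Log2 ratio of each probe (mean and SD of 3 sets, horizontal axis) for the 17 members with 2 probes, ordered by the gap between them. Red probes passed at the probe level and grey ones did not; the probes of Npc1, Ctsd and Ctsh lie apart, those of Ctss nearly coincide.

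Other genes of the pathway were taken from 7 lists with 190 different genes, 123 of them measured. Of these, 38 rose and 12 fell, with a median of 0.10. That is 30.9% up and 9.76% down, where 16.8% of all genes tested rose and 14.6% fell. Of further pump subunits, 6 of 9 rose (66.7%) and 0 fell, with a median of 0.27. Tcirg1, an a subunit of the membrane sector known from osteoclasts, was at 0.59, 0.81 and 0.63 and rose 1.60-fold (0.68 ± 0.12, adjusted p = 0.000859). Atp6v0a1, another a subunit, rose 1.44-fold (0.53 ± 0.087). Over members and others together, 8 of 13 measured pump subunits rose, 0 fell and 12 had means above 0.

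Further cathepsins and peptidases stayed close to 0, with 1 of 10 up (Scpep1, 0.32 ± 0.14), 0 down and a median of 0.023. That 10% up lies below the 16.8% over all genes. Cystatins and other protease inhibitors were mixed: 5 of 11 rose and 2 fell (45.5% and 18.2%). The stefins Stfa3 (1.73 ± 0.30) and Stfa1 (1.53 ± 0.27), cytosolic inhibitors of cysteine cathepsins, rose 3.31- and 2.88-fold, though their probes may bind near-identical copies. The secreted inhibitors Cst6 (-0.87 ± 0.11) and Cst3 (-0.54 ± 0.15) fell 1.82- and 1.45-fold. All 4 had 1 sign on all 6 arrays.

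Among further glycosidases, sulfatases and other hydrolases, 10 of 25 rose and 3 fell (40% and 12%). The shares over all genes tested were 16.8% and 14.6%. Acp5, an acid phosphatase, was at 1.88, 1.40 and 1.71 and rose 3.17-fold, and Pld3, a lysosomal nuclease, rose 2.03-fold (1.02 ± 0.15). Arsb, a sulfatase of glycosaminoglycan breakdown, was at -1.81, -1.70 and -1.84, 3.44-fold lower, with its arrays between -1.84 and -1.62. Gm2a, the cofactor with which Hexa degrades ganglioside, fell 1.27-fold (-0.35 ± 0.26, adjusted p = 0.0455). Arsb stood below all 35 measured members.

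Further membrane proteins and transporters rose in 9 of 22 cases and fell in 3. The peptide transporter Slc15a3 was at 2.71, 2.92 and 2.67 and rose 6.80-fold, above every one of the 35 measured members. Slc11a1, which moves metal ions out of phagosomes, rose 3.07-fold (1.62 ± 0.25). Abca2, a lipid transporter (-0.51 ± 0.076), and the tetraspanin Cd81 (-0.41 ± 0.13) fell.

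Genes that deliver enzymes to lysosomes gave 5 of 26 up and 3 down (19.2% and 11.5%), near the shares over all genes (16.8% and 14.6%). M6pr, a receptor that carries hydrolases from the Golgi, rose 1.67-fold (0.74 ± 0.11), and Vti1b, a SNARE, rose 1.36-fold (0.44 ± 0.11). Lrp1, an endocytic receptor, fell 1.81-fold (-0.86 ± 0.13), and Ap3d1, an adaptor subunit, fell 1.51-fold (-0.60 ± 0.23). Among regulators, 2 of 20 rose and 1 fell (10% and 5%), below both shares over all genes. Mitf, a relative of Tfeb, was at 0.51, 1.31 and 0.86 and rose 1.85-fold (0.89 ± 0.40, adjusted p = 0.00377). Ywhab, a 14-3-3 protein, rose (0.33 ± 0.054), and Usf2, which also binds CACGTG, fell (-0.38 ± 0.066). Of the other relatives of Tfeb, Tfec was at -0.17 ± 0.10 and did not pass (adjusted p = 0.143), and Tfe3 was not measured.

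**Figure D4:**
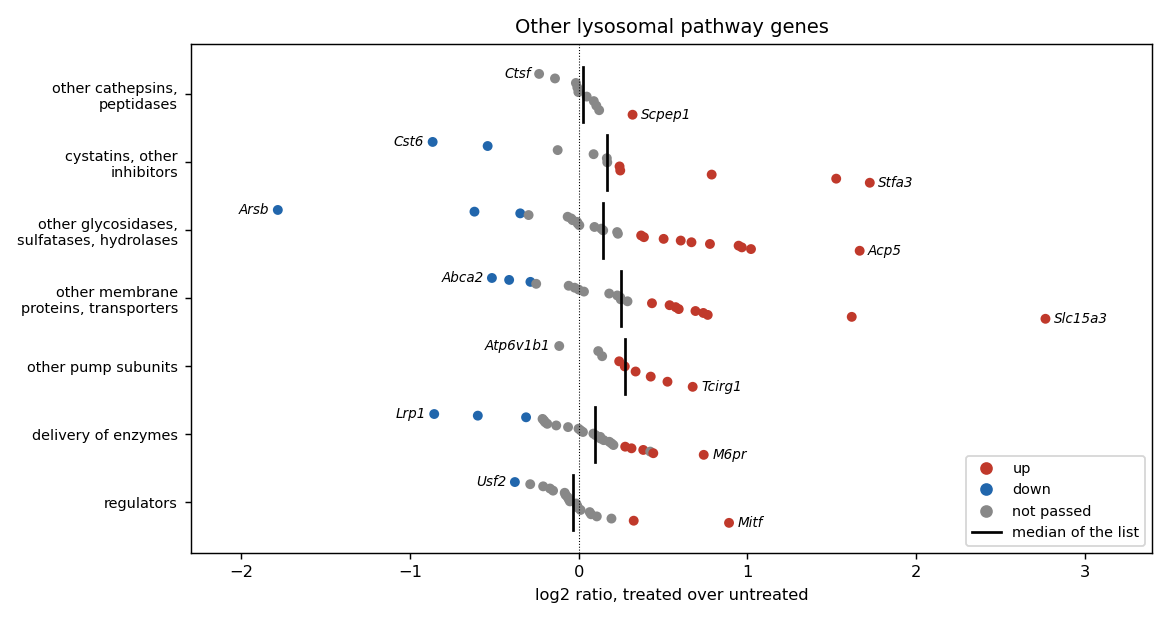
Log2 ratio of treated over untreated cells (horizontal axis) for the measured genes of 7 lists of other lysosomal pathway genes; red dots rose, blue fell and grey did not pass, black bars are list medians, and the lowest and highest gene of each list are named. Slc15a3 (2.77) and Arsb (-1.78) mark the ends.

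Marker genes can show only ratios here, so presence of the macrophage markers could not be checked. Of 10 measured macrophage markers, 7 rose and 1 fell (Csf1r, -0.27 ± 0.082), with a median of 0.61. That is 70% up and 10% down, where 16.8% of all genes rose and 14.6% fell. Of 7 osteoclast markers, which include lysosomal genes, Acp5 rose (14.3%) and Ocstamp (-1.22 ± 0.14) and Nfatc1 (-0.73 ± 0.080) fell (28.6%). Lists for T cells, B cells, granulocytes, dendritic cells and fibroblasts each had 1 gene up and 0 down (Cd4, Cd79a, Csf3r, Fscn1 and Dcn in that order). With 3 to 6 measured genes per list, that is 16.7% to 33.3% up. Lists this short cannot separate 1 gene from the 16.8% over all genes. Any part of a change in cell make-up in the members' ratios was not tested.

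Of the 35 measured members, 8 had orientation means more than 0.3 apart, a gap as wide as the members' median change. Over all genes, arrays of opposite orientation correlated at 0.585 to 0.831 after turning, and arrays of one orientation at 0.770 to 0.833, across probes, which are not independent replicates. The 2 orientation means had opposite signs in 6 members, 0 of which had changed. Opposite signs pull the tested mean toward 0, so these members had little room to pass. The counts of 8 and 6 were made for members only, so no share over all genes stands beside them. On the Cy3 arrays alone 18 members rose and 3 fell, and on the Cy5 arrays alone 12 rose and 0 fell. No member had a dye term past the threshold (lowest adjusted p = 0.147 in limma), where 0.364% of all genes did.

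Of the 35 measured members, 20 had 1 sign on all 6 arrays, where 35.6% of all genes did. Among the 20 members that changed, the exceptions were Neu1 and Asah1. Under 13 alternative settings, 9 of the 20 kept their call in every one: Lamp2, Cd63, Ctsc, Ctss, Gla, Npc2, Grn, Ppt1 and Atp6v1b2. The other 11 lost it in at least 1 setting. Without set 1, 12 members rose and 1 fell, and without set 2, 11 rose and 2 fell.

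**Figure D5:**
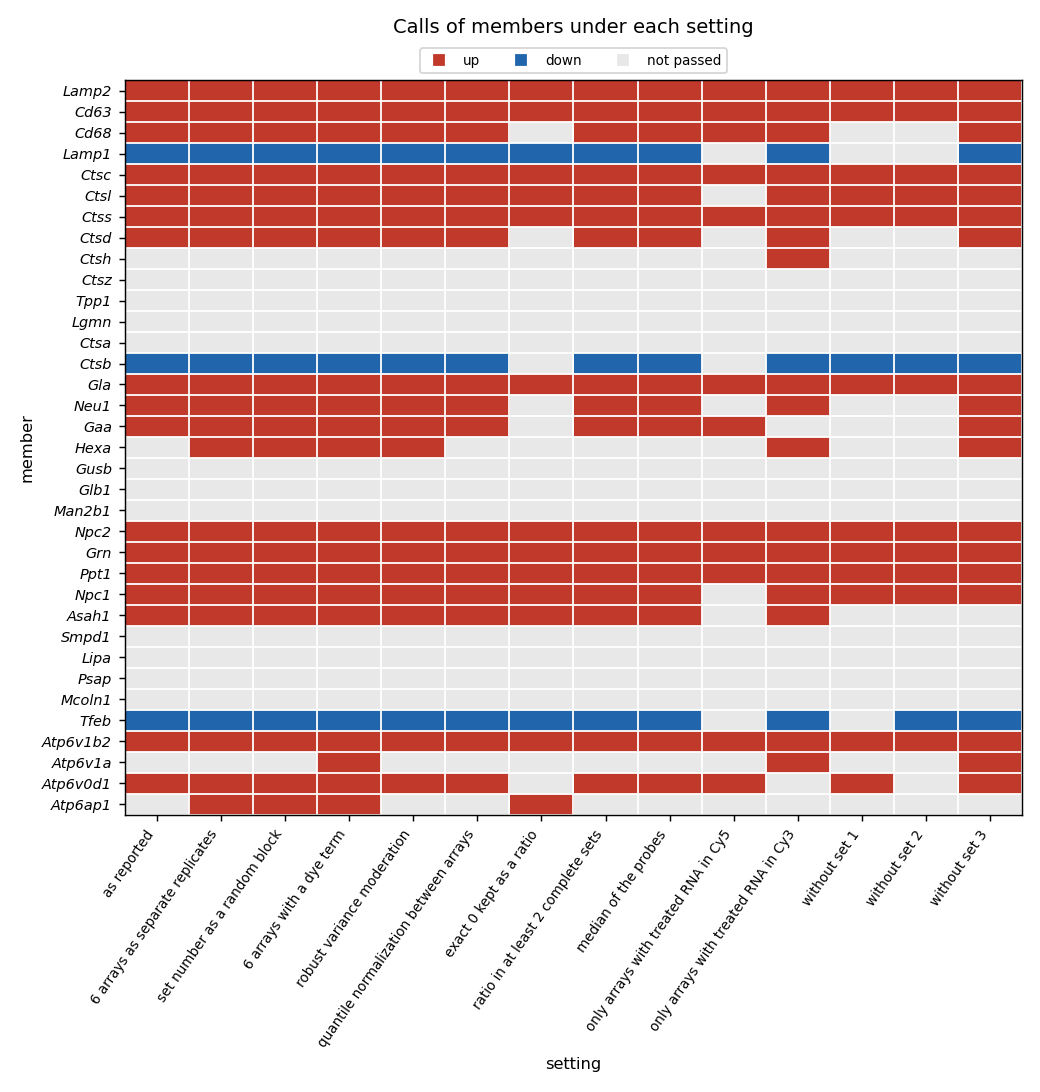
Calls of the 35 measured members (vertical axis) as reported and under 13 alternative settings (horizontal axis); red squares are rises, blue squares falls and grey squares values that did not pass. Rows that are red throughout are the 9 members named as keeping their call, and no row holds both red and blue.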

How the data were processed

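The deposited table holds log2 ratios of the 2 channels for 16281 probes on 6 arrays; how the authors corrected background and normalized is not stated, and only these ratios were used. Array number limits the precision. Exact zeros (9.56% to 12.9% of an array's probes; 11.9% of the members' 59 probes had at least 1) were taken as missing. Deposited column medians were 0. Scale and centring by the authors stay unstated, and the highest ratio was 100-fold. Genes were named from the platform annotation where it gave 1 symbol (13738 probes), and 0 symbols needed an update against the GRCm38.p6 table.

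Arrays were turned to treated over untreated, probes with ratios on all 6 arrays averaged per gene (9607 genes), orientations averaged per set number, and 3 set values tested against 0 with limma 3.58.1 in R 4.3.3 (lmFit, eBayes, two-sided), with p-values adjusted by Benjamini-Hochberg over all genes. Figures used Python 3.11.15. The fit was tested on simulated data. The members and lists were chosen with earlier results of these data known. Named from each other list are the 2 highest and the 2 lowest changed genes with 1 sign on all arrays; Tfec, Csf1r, Ocstamp, Nfatc1, Ctsk, Cd4, Cd79a, Csf3r, Fscn1 and Dcn were added after seeing values. A comparison of cathepsin proteins was planned but not made. Alternatives covered the block, dye term, variance moderation, normalization, zeros, missing values, probe averaging, orientation and left-out sets.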

Additional observations from a re-analysis of the deposited data

How the results depend on the processing

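Kept under all 13 alternatives were the direction of each of the 20 members that changed and a count of changed genes within 1.5 times the 3018 reported (2103 to 3649). Members that changed numbered 20 as reported, 12 on the Cy5 arrays alone, and 13 to 21 when a set was left out (replicate 1, 2 or 3). The peptidase median of 0.14 was 0.24 on the Cy3 arrays alone and 0.22 without set 1; the glycosidase median of 0.27 was 0.091 on the Cy3 arrays alone. Their causes were not tested. With left-out sets, the peptidase median lay between 0.11 and 0.22. Signs turned in 6 members that had not passed. On the Cy5 arrays alone these were Ctsh (-0.023), Lipa (0.043), Mcoln1 (-0.0041) and Atp6v1a (-0.0645), and on the Cy3 arrays alone Tpp1 (-0.078) and Glb1 (0.056). With a set left out, Tpp1 ranged from -0.12 to 0.30, Glb1 from -0.13 to 0.0098, Lipa from -0.14 to 0.029 and Mcoln1 from -0.064 to 0.14.

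With the set number as a replicate block in a 6-array fit, 22 members and 3378 genes changed, and with no replicate block 22 and 3381; Hexa and Atp6ap1 passed in both. Deviations of same-numbered arrays correlated at 0.188, 0.0498 and 0.544 in sets 1 to 3, so the numbers do not clearly pair the arrays. With exact zeros kept as ratios, 15 members changed. Neither signal over background nor array depth could be read from ratios.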

Other observations

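Ctsk, a cysteine protease of osteoclasts outside the 37 genes, had a mean of 0.047 ± 0.040 over arrays of opposite sign. Its arrays with treated RNA in Cy5 were at -0.93, -1.42 and -0.72, and those with treated RNA in Cy3 at 1.08, 1.43 and 0.86. Its dye term was -2.14 (adjusted p = 0.00595 in limma), 1 of 35 genes among 9607 to pass for that term.

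A further probe of Atp6v0d1 with ratios on 2 arrays only stood at -2.26 and 3.04, on arrays of opposite dye. One of Mcoln1 with 4 ratios ran from 0.0006 to 0.79, and one of Grn with 5 ratios from 0.78 to 1.43.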
